A study of Mus musculus with 4 samples.

Results

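The chemokines and chemokine receptors were taken as every gene whose symbol carries the systematic name of a chemokine (Ccl, Cxcl, Cx3cl1 or Xcl1), of a chemokine receptor (Ccr, Cxcr, Cx3cr1 or Xcr1) or of an atypical chemokine receptor (Ackr), chosen by name and not by any measured value. They are 66 gene identifiers of the 27998 in the deposited matrices and carry 60 symbols, of which 38 encode ligands, 18 receptors and 4 atypical receptors. The data are unique molecular identifiers (UMIs), each standing for 1 captured RNA molecule, counted by single-nucleus RNA sequencing in 4 libraries of C57BL/6 mouse kidney at postnatal week 22. There were 2 untreated libraries and 2 libraries of kidneys treated with losartan, which blocks the angiotensin II type 1 receptor. The sources used here do not give the dose, route or length of treatment or the sex of the mice. No label says that the libraries came from separate animals, so the p-values below rest only on the spread between these libraries, part of which may be technical. For each gene, that spread is estimated in part or wholly from the spread of other genes.

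Chemokines are small secreted or membrane-bound proteins that guide migrating cells, above all leukocytes, along gradients toward their source. They act through receptors with 7 membrane-spanning helices that couple to inhibitory G proteins, and 1 ligand often binds several receptors. Atypical receptors bind chemokines without G protein signalling and mostly take them up. In the kidney, injured tubule cells are a well-known source of chemokines that draw monocytes and neutrophils, and resident macrophages are known for the fractalkine receptor CX3CR1.

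The libraries held 9326 to 10342 barcodes and 42290414 to 59078762 UMIs each. Of all 39654 barcodes 35931 nuclei were kept, 8459 to 9386 per library, with median depths of 3354 to 4239 UMIs. Pairs of libraries shared 21 to 29 barcodes. Clusters built without the chemokine and receptor genes gave 18 named cell classes, whose names stand for nuclei that resemble a cell type by its markers, and 14 clusters with 4750 nuclei stayed unnamed. Some clusters came almost entirely from 1 library. Untreated library 2 gave all 129 nuclei of 3 immune clusters (65, 37 and 27 nuclei), and losartan library 1 gave 1157 of the 1180 nuclei of an unnamed tubule cluster. Of the 1119 immune nuclei, 265 and 628 came from the untreated and 92 and 134 from the losartan libraries.

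Coverage of the family was uneven. Of the 66 identifiers, 9 had 0 UMIs, 16 had between 1 and 49 and 41 had at least 50, and the description by cell class rests on the last. The identifiers with 0 UMIs are Ccl27b, both of Ccl21b, both of Ccl21c and further copies of Ccl19, Ccl21a and Ccl27a. Reads of near-identical gene copies can be split or lost in counting, so the values of Ccl19, Ccl21a and Ccl27a are uncertain as to copy. The sparse ones include the eosinophil receptor Ccr3 (6 UMIs), the neutrophil receptor Cxcr1 (4), the red cell and venular scavenger Ackr1 (7) and the macrophage chemokine Ccl3 (24). The other 12 are the ligands Ccl1, Ccl11, Ccl20, Ccl22, Ccl24, Ccl26, Cxcl3, Cxcl5 and Cxcl15 and the receptors Ccr4, Ccr8 and Ccr10, with 1 to 43 UMIs each. The most abundant were Cxcl12 (17358 UMIs), Ccl25 (13668), Ackr3 (9669), Cx3cl1 (8038), Ackr4 (6097) and Cxcl16 (4500). Levels below are UMIs of the gene per 1000000 UMIs of a class in a library (CPM), given as mean ± SD over the libraries with at least 20 nuclei of the class. They describe where each transcript was found and are not compared between genes.

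**Figure D1:**
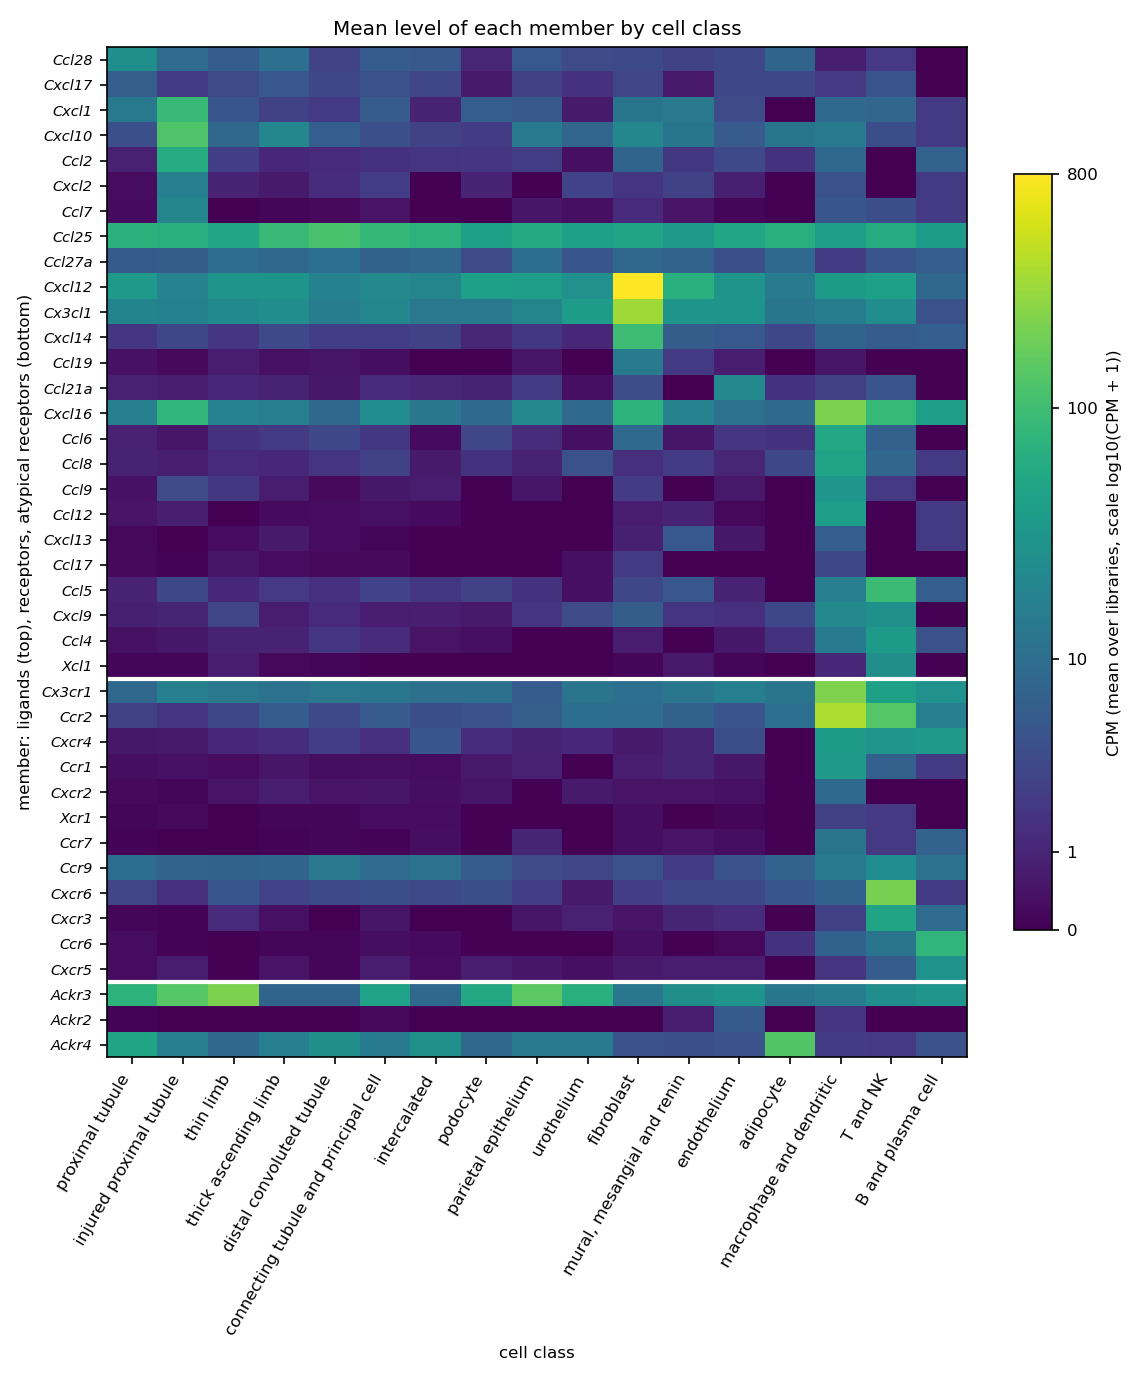
Mean CPM (colour, on a scale of log10(CPM + 1)) of 40 genes with at least 50 UMIs (rows, ligands at the top, receptors in the middle, atypical receptors at the bottom) in 17 cell classes (columns), over libraries with at least 20 nuclei of the class; colours are read along a row. Cxcl12 and Cx3cl1 peak in fibroblasts, Ccr2 and Cx3cr1 in macrophages and dendritic cells, and Ccl25 is spread over all columns.

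Among ligands, fibroblasts were the leading class of 4. Cxcl12, the homeostatic chemokine that retains stem cells and lymphocytes in their niches, stood at 910, 657, 730 and 881 CPM in fibroblasts, here and below in the order untreated 1, untreated 2, losartan 1, losartan 2. The mean of 795 ± 121 CPM was 11.5-fold that of the next class, mural and mesangial nuclei (68.8 ± 51.3), and fibroblasts held 65.4% of all Cxcl12 UMIs. Fibroblasts were first in all 4 libraries. Cx3cl1, or fractalkine, the membrane-bound ligand of Cx3cr1, stood at 333, 326, 242 and 333 CPM in fibroblasts, with urothelium next at 38.2 ± 2.09. Cxcl14, a chemokine of epithelia and stroma whose receptor is debated, stood at 104, 61.7, 90 and 135 CPM there, and 73.4% of its UMIs were in fibroblasts. Ccl19, which guides dendritic cells and naive T cells through Ccr7, was lower and more variable at 8.03, 17.9, 6.30 and 28.3 CPM. For each of these 4 ligands fibroblasts led in 4 of 4 libraries, and the treated and untreated ranges overlapped.

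The fibroblast clusters divided these ligands differently. In the cluster led by Tnn, Alx1, Smoc2 and Lepr (553 nuclei), Cxcl12 stood at 1743, 1107, 1065 and 845 CPM in the same library order. In the largest cluster, led by Abca8a and Fbln5 (2503 nuclei), it stood at 794, 556, 777 and 931 CPM. The first cluster was thus higher in 3 of the 4 libraries, all but losartan library 2. For Cx3cl1 the order was the other way round in all 4 libraries, with 332, 168, 134 and 136 CPM in the first cluster and 358, 370, 292 and 373 CPM in the second. Ccl19 lay almost entirely in the second cluster, with 230 UMIs against 6.

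Injured proximal tubule nuclei, 1 cluster led by Havcr1, Kcnip4 and Ankrd1, were the leading class of 5 ligands: Cxcl1, Cxcl2, Cxcl10, Ccl2 and Ccl7. Cxcl1 and Cxcl2 recruit neutrophils through Cxcr2, Ccl2 and Ccl7 recruit monocytes through Ccr2, and Cxcl10 recruits activated T cells through Cxcr3. Cxcl1 stood at 96.2, 97.5, 67.3 and 91.8 CPM in these nuclei and at 13.98 ± 2.64 CPM in the next class, other proximal tubule nuclei. Ccl2 stood at 73.6, 51.4, 22.4 and 96.2 CPM, and 55.9% of its UMIs came from this class. All 4 libraries placed the injured tubule first for both genes, although losartan library 1 holds only 24 such nuclei against 372, 468 and 132 in the others. Cxcl2 was sparser, at 20.3, 27.4, 0 and 20.7 CPM, and so was Ccl7 at 9.91, 8.17, 44.9 and 16.3 CPM, with the injured tubule first in 3 of 4 libraries for each. Cxcl10 averaged 127 ± 145 CPM and put the injured tubule first in 2 of 4 libraries, the losartan ones. The injured tubule held 25% of all Cxcl1 and 14.3% of all Cxcl10 UMIs, so most of both lay in other nuclei. Ccl2 lies inside the gene Gm17268 on the opposite strand, a transcript that is itself among the leading genes of this cluster (97.2, 69.8, 22.4 and 185 CPM). Whether counting used strand is not given, so reads of the pair cannot be told apart.

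Several ligands that share a leading class are neighbours in the genome. Within 200 kb of each other lay 15 adjacent pairs of the 41 genes, and 8 pairs had the same leading class. On chromosome 11 (GRCm38), Ccl2 (82035571 to 82037453) and Ccl7, 8.26 kb apart, both led in the injured tubule, while Ccl12 and Ccl8, 54.3 kb further on and 11.8 kb apart, both led in macrophages. On chromosome 5, Cxcl1 (90891241 to 90893115) and Cxcl2 (90903871 to 90905938), 10.8 kb apart, both led in the injured tubule, whereas Cxcl9 and Cxcl10, 18.6 kb apart, did not share a class.

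The promoters of Cxcl1, Cxcl2 and Cxcl10 are shown because they carry matches to the kappaB motif, the site of NF-kappaB factors, and, for Cxcl10, to the motif of the interferon-stimulated response element, searched as GAAA, any 2 bases and GAAA. Each run is the 250 bases before the RefSeq start on GRCm38.p6, 5′ to 3′ on the strand of the gene, with capitals marking the matches. The windows are chr5:90890995-90891244 on the plus strand for Cxcl1, chr5:90903649-90903898 on the plus strand for Cxcl2 and chr5:92348890-92349139 on the minus strand for Cxcl10.
Cxcl1: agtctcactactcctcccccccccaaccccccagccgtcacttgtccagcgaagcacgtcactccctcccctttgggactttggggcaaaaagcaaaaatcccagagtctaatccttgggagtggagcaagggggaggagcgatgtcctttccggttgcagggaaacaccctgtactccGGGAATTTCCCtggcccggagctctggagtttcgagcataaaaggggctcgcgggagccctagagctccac
Cxcl2: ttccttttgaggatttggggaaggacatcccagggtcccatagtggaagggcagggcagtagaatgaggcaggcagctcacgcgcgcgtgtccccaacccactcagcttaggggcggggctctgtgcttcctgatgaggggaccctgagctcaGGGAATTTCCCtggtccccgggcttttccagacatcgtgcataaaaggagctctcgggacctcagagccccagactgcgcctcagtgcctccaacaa
Cxcl10: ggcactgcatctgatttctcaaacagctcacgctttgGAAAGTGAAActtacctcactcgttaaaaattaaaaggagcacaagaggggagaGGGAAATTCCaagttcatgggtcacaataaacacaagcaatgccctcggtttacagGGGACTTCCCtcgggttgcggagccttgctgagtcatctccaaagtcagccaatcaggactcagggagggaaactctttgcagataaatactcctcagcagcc
In Cxcl1 and Cxcl2 the capitals hold 1 kappaB match on each strand, overlapping in the same 11 bases, from 71 and from 97 bases before the start. In Cxcl10 they hold the response element motif from 213 bases before the start and kappaB matches from 159 and from 103 bases before it. Of 32851 RefSeq promoter windows of this length, 3.90% hold the kappaB motif and 2.98% hold the response element motif on either strand. Of the 45 chemokine and receptor genes that matched a window, 8 held kappaB (Cxcl1, Cxcl2, Cxcl3, Cxcl10, Ccl9, Ccl20, Ackr2 and Ccr3) and 3 held the response element motif (Cxcl10, Cxcl14 and Ccl19). The windows of Ccl2 and Ccl7 were not searched. A match describes letters and is not a measured binding site.

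Macrophages and dendritic cells led for 15 of the 41 genes. Of the ligands, Cxcl16, a membrane-bound chemokine and scavenger receptor for oxidised lipids, stood at 266, 181, 232 and 180 CPM there, with T and NK nuclei next at 85.7 ± 81.6. Macrophages and dendritic cells held 6.42% of all Cxcl16 UMIs. Ccl6 stood at 25.2, 72.2, 46.4 and 71.9 CPM, and Ccl12, a mouse ligand of Ccr2, at 32.3, 75.3, 0 and 57.5 CPM. Losartan library 1 holds only 22 nuclei of this class, and the 0 allows up to 3 UMIs. Ccl8 was irregular, at 14.4, 158, 0 and 21.6 CPM: in the dividing macrophage cluster 70 UMIs fell in 3 nuclei. In untreated library 2, 1 nucleus held 68 of the 153 Ccl8 UMIs of the class, and without it the level was 88.9 CPM. Ccl9 stood at 32.8 ± 29.3 CPM, Ccl17 at 3.21 ± 3.03 and the B cell chemokine Cxcl13 at 6.45 ± 12.9, so that the spread between libraries was as large as the mean. T and NK nuclei led for Ccl5, which draws T cells and monocytes through Ccr1 among others, at 86.0 and 104 CPM in the untreated libraries. The losartan libraries hold fewer than 20 such nuclei, so they give no level. T and NK nuclei held 7.24% of all Ccl5 UMIs. A further 211 Ccl5 UMIs, 30.5% of the total, came from an unnamed lymphocyte cluster of 65 nuclei found in untreated library 2 only. Xcl1, a ligand made by NK and cytotoxic T cells, led in the same class at 26.3 ± 3.32 CPM, as did Ccl4, an inflammatory chemokine, at 36.7 ± 29.3 CPM. Cxcl9, like Cxcl10 a ligand of Cxcr3, stood at 27.9 ± 28.1 CPM there and at 21.9 ± 31.1 in macrophages, which did not differ beyond their spread.

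Ccl21a, which guides cells into lymphatics through Ccr7, led in endothelium at 22.4 ± 16.5 CPM. It lay in few of these nuclei: 146 of its 156 endothelial UMIs, 93.6%, were in the 107 of 2436 nuclei that held at least 2 lymphatic markers. The tubule had ligands of its own. Ccl28, a mucosal chemokine, led in proximal tubule at 25.8, 36.2, 26.4 and 20.3 CPM, with thick ascending limb next at 10.4 ± 3.59. Cxcl17, another mucosal chemokine, stood at 6.58 ± 1.34 CPM in proximal tubule against 5.14 ± 1.76 in thick ascending limb, which did not differ beyond their spread. Ccl25, the ligand of Ccr9 known from thymus and small intestine, was found in every class, from 36.5 ± 7.91 CPM in mural nuclei to 117 ± 3.41 in distal convoluted tubule. Ccl27a, a skin chemokine, was nearly even, with distal convoluted tubule first at 10.5 ± 2.35 CPM and parietal epithelium next at 10.1 ± 5.39. Ccl25 overlaps Elavl1, and Ccl27a overlaps Il11ra1, on the opposite strand.

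Most receptors had their highest level in immune classes, although these few nuclei held a minority of the UMIs of most receptors, such as 46.6% for Ccr2, 18.6% for Cx3cr1 and 6.03% for Ccr9. Cx3cr1 overlaps Gorasp1, Csrnp1 and Xirp1 on the same strand and Wdr48 and Ttc21a on the opposite strand. Ccr9 overlaps Slc6a20a and Lztfl1, and Cxcr6 lies inside Fyco1, each on the opposite strand. The part of these genes in the UMIs of the 3 receptors was not tested. In macrophages and dendritic cells, Ccr2, the monocyte receptor for Ccl2, stood at 295, 328, 433 and 345 CPM. Cx3cr1 stood at 208, 259, 278 and 137 CPM in the same nuclei. Both receptors led there in 4 of 4 libraries, and T and NK nuclei came next for each, at 136 ± 16.7 CPM for Ccr2 and 43.1 ± 6.89 for Cx3cr1. The macrophage clusters differed in the receptor they held: in the cluster led by F13a1, Mrc1 and Cd163 (43 nuclei) Ccr2 had 2 UMIs, while Cx3cr1 had 27. Ccr1, which binds Ccl5, Ccl6 and Ccl9, stood at 46.7, 37.1, 30.9 and 28.8 CPM. Ccr7, which takes dendritic cells to lymph nodes, stood at 12.2 ± 18.5 CPM and Cxcr2, the neutrophil receptor, at 8.88 ± 14.8, each first in this class in 2 of 4 libraries. These levels rest on 14 Ccr7 and 4 Cxcr2 UMIs. Cxcr4, the receptor of Cxcl12, stood at 37.4 ± 13.6 CPM in macrophages and 34.8 ± 28.7 in B and plasma cells, which did not differ beyond their spread.

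Lymphocyte receptors had their highest levels in T and NK or B and plasma nuclei, which held 9.72% of Cxcr6, 14.1% of Cxcr3, 17.7% of Ccr6 and 8.93% of Cxcr5 UMIs. Cxcr6, the receptor of Cxcl16, stood at 210 and 188 CPM in T and NK nuclei of the untreated libraries and at 6.94 ± 10.2 CPM in the next class. Cxcr3, the receptor of Cxcl9 and Cxcl10, stood at 47.9 ± 0.129 CPM in T and NK nuclei, a class that held 18 Cxcr3 UMIs. Ccr6 and Cxcr5, which place B cells in tissue and in follicles, led in B and plasma cells at 79.7 ± 10.8 and 29.4 ± 0.399 CPM. That class held 23 Ccr6 and 10 Cxcr5 UMIs. The levels of Cxcr3, Ccr6 and Cxcr5 rest on 2 libraries, and their SDs do not measure counting error. Within that class 23 of 23 Ccr6 UMIs were in the cluster with Pax5 and Ms4a1 (28 nuclei) and none in the plasma cell cluster. A cluster of 43 nuclei led by Clec9a, Wdfy4 and Flt3, which stayed unnamed, held 28 of the 71 Xcr1 UMIs (206 CPM, 95% Poisson interval 137 to 298, counting error only). It also held Ccr9 at 310 CPM (223 to 419), against class means of 2.09 to 24.8 CPM elsewhere. Clec9a and Xcr1 are textbook markers of the dendritic cells that cross-present antigen.

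The atypical receptors with at least 50 UMIs each led in a different class. Ackr3, which takes up Cxcl12, led in the thin limb at 310, 105, 305 and 119 CPM, and the 2 higher values belong to 1 untreated and 1 losartan library. Parietal epithelium (146 ± 69.9 CPM) and injured proximal tubule (140 ± 47.8) came next and did not differ from it beyond their spread, while proximal tubule, at 74.9 ± 19.4 CPM, held 47.3% of all Ackr3 UMIs. Ackr4, which removes Ccl19, Ccl21 and Ccl25, led in adipocytes, nuclei present only in untreated library 2 and losartan library 2, at 134 and 125 CPM. Proximal tubule was next for Ackr4 at 47.9 ± 7.83 CPM and held 49.6% of its UMIs. Ackr4 lies inside Acad11 on the opposite strand, and Acad11 stood at 39.6, 40.8, 45.8 and 42.6 CPM in proximal tubule. Ackr2, a scavenger of inflammatory Ccl chemokines, led in endothelium at 5.68 ± 1.04 CPM with 75.0% of its 60 UMIs. Thus Cxcl12 led in fibroblasts, and its receptors led elsewhere, Cxcr4 in immune nuclei and Ackr3 in tubule epithelium.

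The first comparison asks whether losartan-treated kidneys as a whole differ from untreated ones. No member passed the test, and most stood lower with losartan. Of the 66 identifiers 45 passed the filter on low counts, and the quasi-likelihood test of edgeR called 0 of the 45 (0 of all 18402 genes tested, 0%) at a Benjamini-Hochberg adjusted p under 0.05. At an unadjusted p under 0.05 there were 16 of 45, against 4075 of 18402 for all genes. With DESeq2 7 passed (among them Ackr4, Ccl12, Ccl8, Ccl9, Ccr2 and Cxcl2), where it called 9.62% of all genes, and with the replicate numbers as a block 8 passed (those 7 and Cxcr4), where 8.65% of all genes did. In plain CPM 29 of the 45 had both losartan libraries below both untreated ones, as did 44.8% of all genes, and 3 had both above (Ackr4, Ccr9 and Ccl25), as did 14.1%. The median log2 change, losartan over untreated, was -0.66 over the 45 and -0.01 over all genes. In summed data of this kind, fewer cells of a type and less RNA per cell cannot be told apart. The edgeR scaling places the median gene 0.15 log2 units above the plain CPM ratio, and Ccl27a and Ccl19 change sign between these scales.

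Receptors of monocytes and T cells stood lower with losartan without passing the test. Ccr2 stood at 10.7, 15.02, 5.76 and 6.13 CPM, with no overlap and a log2 change of -0.96 ± 0.19 (edgeR adjusted p = 0.1195). Cx3cr1 stood at 15.4, 16.3, 10.4 and 10.8 CPM (log2 -0.43), Ccr1 at 1.40, 1.26, 0.350 and 0.606 (log2 -1.33) and Cxcr3 at 0.730, 1.32, 0.350 and 0.430 (log2 -1.24). Cxcr4 stood at 2.13, 4.44, 0.836 and 1.46 CPM (log2 -1.36). These 5 receptors lay below the untreated range in both losartan libraries, as did 44.8% of all genes. Cxcr6 (3.57, 5.53, 3.93 and 3.59 CPM) and Cxcr2 (0.815, 0.299, 0.370 and 0.391) overlapped, and Ccr9 stood at 8.43, 9.35, 10.6 and 9.94 CPM, higher in both losartan libraries (log2 0.36, edgeR adjusted p = 0.220). The UMI counts were 8, 11, 11 and 7 for Ccr10, the skin-homing receptor of Ccl27 and Ccl28, and 1, 3, 0 and 2 for Ccr3, too few to read a difference.

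Among ligands, Ccl12 stood at 1.10, 2.35, 0.156 and 0.430 CPM, with a log2 change of -2.40 ± 0.60 (edgeR adjusted p = 0.1398). Ccl4 stood at 1.43, 1.37, 0.564 and 0.313 CPM (log2 -1.51) and Cxcl16 at 28.9, 29.9, 18.3 and 22.0 CPM (log2 -0.39). Ccl5 stood at 2.75, 7.89, 1.75 and 2.60 CPM (log2 -1.14) and Ccl6 at 2.78, 3.35, 1.60 and 2.38 (log2 -0.48). All 5 were below the untreated range in both losartan libraries, as were 44.8% of all genes. The ligands whose leading class was the injured tubule were lower too in the whole kidney, with a wide gap between the losartan libraries. That class held 55.9% of Ccl2, 52.4% of Cxcl2 and 45.1% of Ccl7 UMIs, but only 25% of Cxcl1 and 14.3% of Cxcl10 UMIs. Ccl2 stood at 7.05, 6.15, 0.389 and 3.03 CPM (log2 -1.82, edgeR adjusted p = 0.281) and Ccl7 at 1.15, 1.34, 0.0973 and 0.645 (log2 -1.61). Cxcl2 stood at 1.85, 3.37, 0.311 and 0.938 CPM (log2 -1.92). All 3 were lower in both losartan libraries. Cxcl10 stood at 11.7, 13.8, 3.60 and 7.91 CPM (log2 -1.001, edgeR adjusted p = 0.211) and Cxcl1 at 14.97, 16.4, 13.5 and 8.36 (log2 -0.36). For Ccl2, Ccl7, Cxcl2 and Cxcl10 losartan library 1 was the lowest of the 4, and for Cxcl1 it was losartan library 2.

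The stromal and tubular members were less ordered. Cxcl12 stood at 117, 87.1, 67.0 and 110 CPM, Cxcl14 at 12.2, 7.89, 7.14 and 14.5 and Ccl19 at 1.24, 2.35, 0.584 and 2.95, and the groups overlapped for each. Cx3cl1 stood at 50.4, 51.2, 28.2 and 46.8 CPM, both losartan libraries lower, library 2 by little (log2 -0.29). Ccl28 (16.1, 15.8, 23.8 and 12.6 CPM), Cxcl17 (3.82, 4.97, 5.89 and 4.92) and Ackr3 (70.9, 45.5, 43.0 and 54.7) overlapped as well. Ccl27a stood at 7.22, 6.79, 6.71 and 6.19 CPM, lower in both losartan libraries by a small amount in plain CPM, while the fitted log2 change was 0.04. Ccl25 stood at 71.2, 71.9, 77.9 and 73.4 CPM, higher in both losartan libraries by a small amount (log2 0.23, edgeR adjusted p = 0.257). Ackr2 had 15, 22, 12 and 11 UMIs, Ackr1 had 1, 3, 1 and 2 and Ccl3 had 5, 11, 6 and 2.

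**Figure D2:**
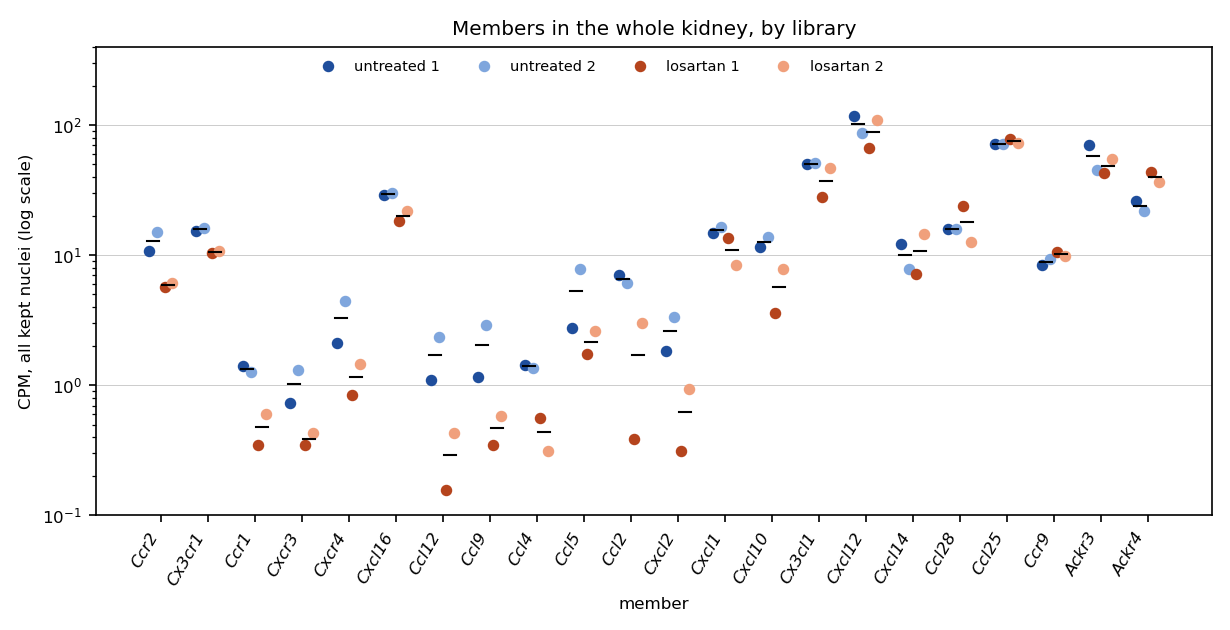
CPM in the whole kidney (vertical axis, log scale) of 22 chemokine and receptor genes (horizontal axis), with 1 point per library (blue shades untreated, red shades losartan) and black bars at the mean of each group of 2. Ccr2 and Cx3cr1 lie lower in both losartan libraries, Ackr4 lies higher in both, and the points of Cxcl12 and Ackr3 overlap.

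Ackr4 had the smallest p among members that stood higher with losartan. It stood at 26.0, 22.0, 43.8 and 37.0 CPM in the whole kidney, without overlap, with a log2 change of 0.90 ± 0.17 (edgeR adjusted p = 0.119, DESeq2 adjusted p = 0.000827). Within the proximal tubule class it stood at 43.4, 39.1, 54.4 and 54.6 CPM (log2 0.48 ± 0.10, edgeR adjusted p = 0.202). The values by cluster lay closer together: in the one led by Slc7a12 and Cyp7b1 the values were 34.8, 36.8, 38.2 and 38.2 CPM, and in the one led by Dpys and Ugt2b37 they were 53.6, 68.1, 69.7 and 68.6 CPM. The clusters with more Ackr4 held more nuclei of the losartan libraries: the second had 325 and 159 untreated and 682 and 1187 losartan nuclei, against 712, 421, 637 and 715 in the first. The unnamed tubule cluster from losartan library 1 held Ackr4 at 70.4 CPM. Acad11, on the other strand, stood at 27.9, 25.0, 37.7 and 34.0 CPM in the whole kidney. The part of each in the whole-kidney value was not tested.

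Leukocyte content moved with the same libraries. The summed level of 10 pan-leukocyte markers in the whole kidney was 406, 576, 229 and 262 CPM, and all 10 were detected. Macrophages and dendritic cells made up 1.40%, 3.22%, 0.243% and 0.479% of nuclei (log2 -2.67, edgeR adjusted p = 0.0994), T and NK nuclei 0.426%, 0.951%, 0.0885% and 0.1598% (log2 -2.46, edgeR adjusted p = 0.0994), and B and plasma cells 0.319%, 0.818%, 0.0442% and 0.0320% (log2 -3.86, edgeR adjusted p = 0.0893). None of the 3 shares passed. They leave out immune nuclei of unnamed clusters. With those included, immune nuclei numbered 265 of 8459, 628 of 9043, 92 of 9043 and 134 of 9386 kept nuclei, in the same library order. The share of that total was not tested. Injured proximal tubule nuclei made up 4.398%, 5.18%, 0.265% and 1.41% (log2 -2.51, edgeR adjusted p = 0.207).

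With the 1119 immune nuclei left out, several receptors stood closer to 0, and others did not. Immune nuclei held 46.6% of Ccr2 UMIs, and without them its log2 change was -0.21 in place of -0.96. For Cx3cr1 it was -0.11 in place of -0.43, for Ccr1 -0.48 in place of -1.33 and for Ccl5 -0.24 in place of -1.14. Ccl12, Ccl8 and Ccl9 had 54.7%, 41.9% and 43.6% of their UMIs in immune nuclei, yet stayed well below 0 without them. Their log2 changes were -1.73 in place of -2.40, -2.33 in place of -3.03 and -1.38 in place of -1.96. Xcr1, with 49.3% of its UMIs in immune nuclei, changed sign, at 0.38 in place of -0.66. Cxcr2 stood further from 0, at -0.55 in place of -0.37, Ccr9 at 0.40 in place of 0.36, and Cxcr6 changed sign, at 0.31 in place of -0.12. Ackr4 stood at 0.86 in place of 0.90, Cxcl10 at -1.05 in place of -1.001 and Ccl2 at -1.83 in place of -1.82, and immune nuclei held 0.443%, 2.79% and 2.52% of their UMIs. Of the 43 members tested in both fits, 29 had a smaller change without immune nuclei, and 0 were called in either. The share of all genes with a smaller change is not given.

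**Figure D3:**
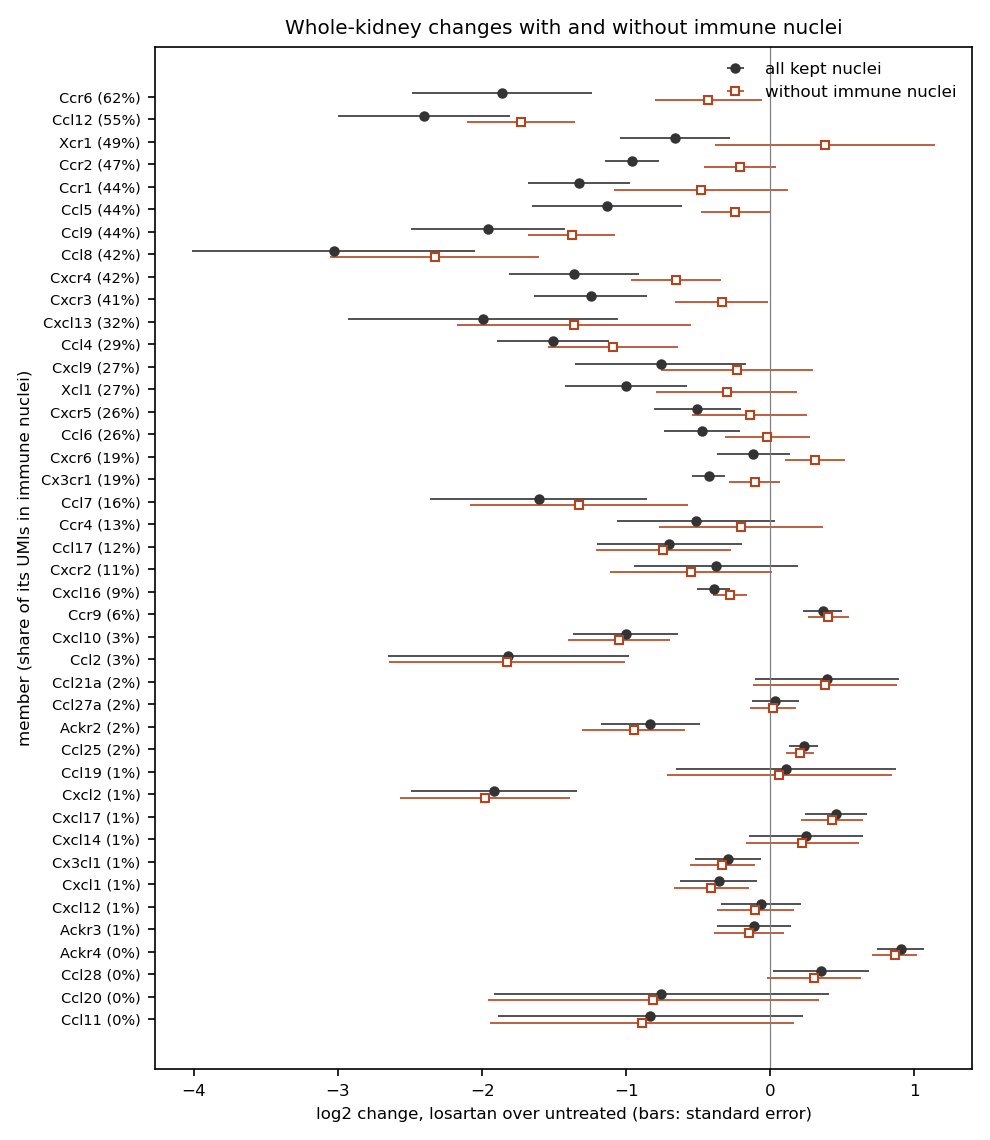
Log2 change of losartan over untreated in the whole kidney (horizontal axis, bars 1 standard error) for 42 members (rows, ordered by the share of their UMIs in immune nuclei, in brackets), with all kept nuclei (filled) and without immune nuclei (open). Near the top, Ccr2 and Ccr1 move toward 0, Ccl12, Ccl8 and Ccl9 stay well below it, and Xcr1 changes sign. Cxcl10, Ccl2 and Ackr4 lower down stay in place.

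The second comparison asks whether members differ within a cell class. A single member, Cxcl10, passed the test, in 2 classes and in opposite directions: it fell with losartan in the thick ascending limb and rose in the injured proximal tubule. Cxcl10 (ENSMUSG00000034855, chromosome 5, 92346638 to 92348889, minus strand, GRCm38) encodes the interferon-inducible ligand of Cxcr3 whose promoter is shown above. In the thick ascending limb, the segment that takes up salt through the transporter Slc12a1, Cxcl10 stood at 26.6, 46.7, 2.95 and 7.62 CPM, from 117, 207, 11 and 34 UMIs. Both losartan libraries lay below both untreated ones, and the log2 change was -2.70 ± 0.41 (edgeR adjusted p = 0.0411). It was 1 of the 18 members tested in this class, where 62 of 13310 genes, 0.466%, were called, 0.278% as lower. The call was lost with RLE scaling (edgeR adjusted p = 0.0538), without the 10% of nuclei richest in leukocyte UMIs (0.0576), without losartan library 1 (0.967) and without losartan library 2 (0.427), with log2 changes from -3.59 to -2.22.

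Most of the thick ascending limb Cxcl10 came from 1 of its clusters. The cluster led by Casr, Egf and Cldn16, genes known from the cortical limb, held 298 UMIs and stood at 43.5, 78.8, 2.39 and 9.17 CPM. The cluster led by Kcnt1, Tmem207 and Ptger3 held 71 UMIs and stood at 9.95, 12.1, 4.15 and 7.02 CPM. In both clusters the losartan libraries were below the untreated ones. Within the class the summed pan-leukocyte markers were 409, 348, 318 and 360 CPM and the summed injured-tubule markers 911, 823, 638 and 647 CPM; their part in the result was not tested.

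In the injured proximal tubule Cxcl10 stood at 12.3, 23.9, 325 and 147 CPM, from 26, 82, 29 and 99 UMIs. Both losartan libraries lay above both untreated ones, and the log2 change was 3.33 ± 0.39 (edgeR adjusted p = 0.00835), where 3 of 11164 genes, 0.0269%, were called, 0.0179% as higher. This class entered as an alternative chosen after seeing the data, since it has fewer than 50 nuclei in losartan library 1. The UMIs lay in few nuclei: 10 of 372, 26 of 468, 4 of 24 and 17 of 132. The richest nucleus of each library held 9, 12, 12 and 33 UMIs. Without these nuclei the values were 8.04, 20.5, 201 and 99.4 CPM, and the log2 change was 2.99 (edgeR adjusted p = 0.0464). The call held without each library in turn, with log2 changes from 2.96 to 3.99. Cxcl10 lies inside Art3 on the opposite strand, which had 6, 12, 1 and 0 UMIs in this class. The summed injured-tubule markers there were 3173, 3229, 1805 and 3194 CPM and the pan-leukocyte markers 187, 209, 146 and 213 CPM.

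**Figure D4:**
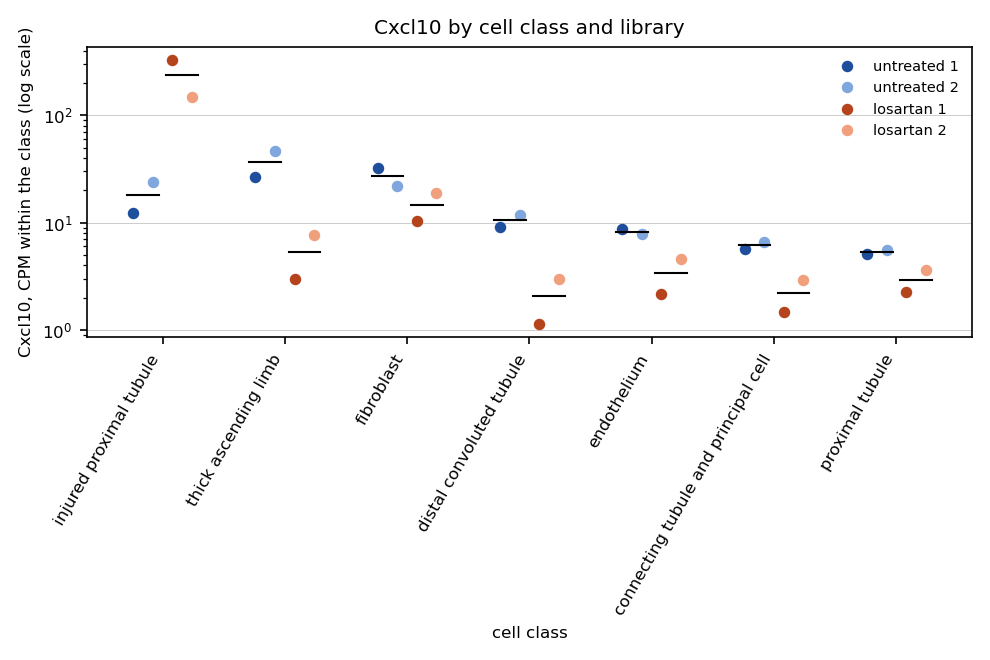
Cxcl10 CPM (vertical axis, log scale) in each of the 7 classes where it was tested (horizontal axis), with 1 point per library (blue shades untreated, red shades losartan) and black bars at the group means. The losartan points lie above the untreated ones in the injured proximal tubule and below them in the other 6 classes.

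Cxcl10 was tested in 7 classes, and in none did the groups overlap. Over all genes both losartan libraries lay below both untreated ones in 24.9% (thick ascending limb), 24.8% (distal convoluted tubule), 17.8% (connecting tubule and principal cells), 19.6% (endothelium), 18.7% (fibroblasts) and 32.9% (proximal tubule), and above them in 18% in the injured proximal tubule. In the 5 classes where it was not called it stood lower in both losartan libraries, with log2 changes of -2.29 in distal convoluted tubule (edgeR adjusted p = 0.133), -1.44 in connecting tubule and principal cells, -1.12 in endothelium, -0.82 in fibroblasts and -0.77 in proximal tubule. The difference between classes was tested directly. The change in the injured minus that in the other proximal tubule was 4.08 ± 0.41 log2 units for Cxcl10 (edgeR adjusted p = 2.9e-19). In this contrast 110 of 15292 genes, 0.719%, were called and no other member was. The p of Cxcl10 is that of a normal distribution. It thus rests on a spread shared across genes, not on the spread of Cxcl10 between the 4 libraries. The change in the thick ascending limb minus that in the proximal tubule was -1.97 ± 0.38 (edgeR adjusted p = 0.151), where 4 of 15209 genes, 0.0263%, were called.

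In the other 12 class fits neither edgeR nor DESeq2 called any of 117 tests of members, and 14 had an unadjusted p under 0.05 (12%, against 8.05% of all tests of genes in these classes). Over all genes edgeR called 0.24% in distal convoluted tubule, 0.0103% in intercalated, 1.14% in mural and mesangial, 1.2% in parietal, 0.261% in podocyte, 0.0268% in proximal tubule and 0.0432% in macrophage and dendritic nuclei, and 0% in connecting tubule and principal cells, endothelium, fibroblasts, thin limb and urothelium. Ccl2 in proximal tubule stood at 1.48, 1.19, 0.295 and 0.321 CPM (log2 -2.01, edgeR adjusted p = 0.202). Cxcl12 in mural and mesangial nuclei stood at 52.4, 22.7, 142 and 58.1 CPM (log2 1.47, edgeR adjusted p = 0.185). Ccl21a in endothelium stood at 4.09, 16.6, 25.7 and 43.4 CPM (log2 1.71, edgeR adjusted p = 0.819). Its source nuclei there, those with at least 2 lymphatic markers, numbered only 27, 46, 13 and 21. In fibroblasts Cxcl12 (log2 0.03), Cx3cl1 (-0.20) and Cxcl14 (0.45) overlapped between groups. In macrophages and dendritic cells, Ccr2 had a log2 change of 0.29 (edgeR adjusted p = 0.875), against -0.96 in the whole kidney, and neither passed. Ccl2 and Cxcl1 in the injured tubule had log2 changes of 0.37 and -0.18.

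The pathway around the family was read from fixed lists. For comparison, 22.1% of all genes had an unadjusted p under 0.05 in the whole kidney, 9.62% passed in DESeq2, and the median log2 change was -0.01. Both losartan libraries lay below both untreated ones for 44.8% of all genes. Of 28 inducers of chemokine genes (cytokines, their receptors, NF-kappaB and interferon regulatory factors) 25 were tested in the whole kidney, and edgeR called 0, with 14 at an unadjusted p under 0.05, 5 passing in DESeq2 and a median log2 change of -0.45. The smallest p-values were those of Tnf (0.730, 1.30, 0.117 and 0.176 CPM, log2 -2.63), the NF-kappaB subunit Relb (26.7, 26.5, 10.7 and 14.9 CPM, log2 -0.90) and the interferon factor Irf7 (6.66, 8.98, 2.57 and 3.67 CPM, log2 -1.17). All 3 were lower in both losartan libraries. Of the 26 genes of receptor signalling and desensitisation edgeR called 0, with 16 at an unadjusted p under 0.05, 8 passing in DESeq2 and a median of -0.55. Prex1, an exchange factor for Rac, was lowest in p at 21.7, 24.4, 9.16 and 10.0 CPM (log2 -1.11), ahead of Pik3r5 (log2 -1.36) and Elmo1 (log2 -0.76). Of 17 tested genes of leukocyte adhesion and chemokine presentation edgeR called 0, with 8 at an unadjusted p under 0.05, 8 passing in DESeq2 and a median of -0.84. Itgal, an integrin chain of leukocytes (log2 -0.99), its ligand Icam1 (log2 -0.63) and the integrin chain Itga4 (log2 -1.20) were lowest in p. Of 8 tested genes of chemokine processing edgeR called 0, with 2 at an unadjusted p under 0.05, 1 passing in DESeq2 and a median of -0.36. Mmp2 (log2 -1.66), Ctsl (log2 0.29) and Mmp12 (log2 -0.65) were lowest in p. The 10 pan-leukocyte markers had a median of -1.06, with 0 called by edgeR, 8 at an unadjusted p under 0.05 and 7 passing in DESeq2, led by Ptprc (log2 -1.05), Laptm5 (log2 -1.45) and Dock2 (log2 -1.15). No gene of the 5 lists was called by edgeR or DESeq2 within any class. The inducers did not stand lower in every class. In the injured proximal tubule the 20 tested had a median log2 change of 0.32. Of these, 10 had both losartan libraries above both untreated ones, as did 18% of all genes there, and 0 had both below. In the thick ascending limb the median of the inducers was -0.16.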

How the data were processed

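Nuclei were isolated from flash-frozen kidneys and sequenced on the 10x Chromium platform, per the labels' protocols. The deposited values are raw UMI counts per gene and nucleus, made with Cell Ranger 5.0.0 per the file headers. The submitters' processing notes also name the build mm10 and Bowtie 0.12.2 without saying what each was used for, and the strand used in counting is not given in the sources used here. No depth normalisation had been applied to the counts by the authors.

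Nuclei with at least 500 UMIs and 300 genes and at most 10% mitochondrial UMIs were kept. Scrublet's automatic threshold removed 837 doublets from untreated library 1; in the other 3 libraries it marked 0, so nuclei with the highest scores were taken out there at a rate of 0.8% per 1000. Clustering used 3000 variable genes without the chemokine and receptor genes, 30 principal components, 15 neighbours and the Leiden method at resolution 1 (Scanpy 1.11.5, Python 3.11.15). Class names required at least 3 detected markers.

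UMIs were summed per library and class and tested with edgeR 4.0.16 (quasi-likelihood, TMM, filterByExpr) in R 4.3.3, over all genes, with Benjamini-Hochberg adjustment at 0.05. Differences between classes were tested as an interaction with the library as a block. A class was tested where each library held 50 or more of its nuclei (11 classes), and 3 classes with 20 or more were added after seeing the data. The exact permutation test of 2 against 2 libraries cannot go below p = 0.333 and was not used. Alternatives were DESeq2 1.42.0, RLE scaling, no filter, 1000 UMIs, doublets kept, a replicate block, resolution 2, and nuclei or libraries left out. The procedure was tested on simulated counts: of genes changed by 1 log2 unit, 67% were called in the whole kidney (18400 genes), 49% in the thick ascending limb (13310) and 43% in fibroblasts (13340). The simulated spread followed the trend over all genes alone. In the simulated whole kidney 161 genes were called, against 0 of 18402 in the data. These percentages therefore do not give the power of the real fits. Named with values were the genes called in any fit, the 20 with most UMIs, the 5 with the smallest p in each direction, and their ligands or receptors. Genes and lists were chosen with earlier results of these data known. Gene positions are from GENCODE M21 and promoter windows from RefSeq, both on GRCm38. One receptor is counted among the genes tested but its values are not reported here.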

Additional observations from a re-analysis of the deposited data

Results flagged for a closer look

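The losartan effect on Cxcl10 differed between the injured and the other proximal tubule nuclei, by a test of the difference itself: 4.08 ± 0.41 log2 units (SE, edgeR adjusted p = 2.9e-19). It lay between 3.44 and 5.15 when each library was left out in turn, with edgeR adjusted p = 0.0204 without losartan library 1 and 0.0118 without losartan library 2. The losartan side rests on 24 and 132 injured nuclei. The edgeR adjusted p of 2.9e-19 rests on a spread shared across genes, not on that of Cxcl10 between the 4 libraries.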

How the results depend on the processing

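DESeq2 called 7 members in the whole kidney and the replicate block 8 (where it called 8.65% of all genes), against 0. In endothelium and in mural nuclei 1 member each was called without the filter, and 1 each with the replicate block (Ccl21a and Cxcl12). Intercalated cells had 2 (Ackr3 and Ackr4) with doublets kept, and macrophages 2 (Ccl8 and Cxcl9) without the filter. In the 22 and 45 macrophage nuclei of the losartan libraries Cxcl9 had 0 and 0 UMIs and Ccl8 had 0 and 3. Of the 153 Ccl8 UMIs in untreated library 2, 68 were in 1 nucleus. The share of all genes called in these and the following class and contrast fits is not given, so their counts have no background. The thick ascending limb had 0 with RLE scaling and 0 without the nuclei richest in leukocyte UMIs. Leaving out each library in turn gave 0 to 1 members in endothelium, mural nuclei, parietal epithelium, thick ascending limb and macrophages. The thick ascending limb minus proximal tubule contrast gave 0 to 2, with Cxcl10 from -2.43 to -1.59 and called without untreated library 1 (-2.30) or 2 (-1.59). With the replicate block the share changes passed: macrophages -2.64, T and NK -2.43 (edgeR adjusted p = 0.0266 for both) and B and plasma cells -3.77 (0.0432). The last ranged from -4.38 to -3.02 without single libraries. Same-numbered libraries correlated at 0.384 in the whole kidney, but with 2 pairs they share only a number.

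Among members named with values, whole-kidney log2 changes that turned sign without a library ranged from -0.31 to 0.65 (Cxcl14), -0.97 to 0.54 (Cxcr2), -0.66 to 0.0016 (Cx3cl1), -0.62 to 0.087 (Ccr10), -0.42 to 0.29 (Ackr3), -0.36 to 0.20 (Cxcr6), -0.43 to 0.23 (Cxcl12), -1.42 to 0.84 (Ccl19), -0.059 to 0.13 (Ccl27a) and -0.22 to 0.77 (Ccl28). Those of Ccl21a, Cxcl9, Ccl11, Ccl20 and Ccr4 turned too. Ccl19 was -0.10 with the replicate block. Without clusters of 1 library Ccr10 was 0.17 and Cxcr6 0.0020; without leukocyte nuclei Cxcr6 was 0.31. The cause was not tested. With 1 library left out, the lone library is assumed to vary like the other group. Depth limits the members under 50 UMIs and the losartan libraries' few immune and injured nuclei. Of 41 leading classes 40 held with doublets kept, 40 at resolution 2 and 30 to 39 without single libraries.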
